A study of Mus musculus with 8 samples.

Results

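The 5 genes described here are Foxa1, Foxa2, Foxa3, Hnf4a and Hnf4g, which encode forkhead box A and hepatocyte nuclear factor 4 transcription factors. They were chosen by name: every probe whose gene name in the scanner files equals 1 of these symbols was taken, which gave 6 probes for the 5 genes, out of 36083 named genes or transcripts on the array. Foxa2 has 2 probes and the others have 1 each. The levels come from the small intestine of embryonic mice (E18.5), on 4 arrays of wild-type samples (Rfx6+/+, labelled control) and 4 arrays of homozygous null samples (Rfx6-/-, labelled Rfx6 KO). The null allele came from a floxed Rfx6 allele deleted with CMV-Cre, whose promoter is active in most tissues, so the deletion was not limited to the gut; heterozygotes were then intercrossed. Total RNA was labelled with Cy3 and read on single-colour Agilent arrays, and the question of the comparison is which genes depend on Rfx6, a winged-helix transcription factor of endocrine cells.

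Foxa proteins bind DNA through a forkhead domain and are known as pioneer factors, able to bind their sites in closed chromatin. They act in the formation of gut, liver, pancreas and lung epithelium, and in the intestine Foxa1 and Foxa2 are known for their part in goblet and enteroendocrine differentiation. Hnf4a and Hnf4g are nuclear receptors that bind direct repeats as dimers and are known to activate genes of lipid handling and the brush border in enterocytes. The name hepatocyte nuclear factor covers unrelated protein families that were first found as liver DNA-binding activities: Foxa proteins were once called HNF-3.

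The stretches of genome before the start sites of the members are shown because the 3 Foxa genes rose together and Hnf4a did not pass the test. RefSeq promoters (GRCm38.p6) were matched for 4 of the 5 members, with 1 start for Foxa1, 3 for Foxa2, 1 for Foxa3 and 2 for Hnf4a. Each sequence below holds the 250 bases before a start, on the strand of the gene. Capitals mark exact matches, on either strand, to the forkhead letters TGTTTAC or TGTTTGC, the HNF4 letters CAAAGTCCA or GTTGCC, a short part of the longer X-box to which RFX proteins bind.

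Foxa1 (chr12:57546112-57546361, minus strand): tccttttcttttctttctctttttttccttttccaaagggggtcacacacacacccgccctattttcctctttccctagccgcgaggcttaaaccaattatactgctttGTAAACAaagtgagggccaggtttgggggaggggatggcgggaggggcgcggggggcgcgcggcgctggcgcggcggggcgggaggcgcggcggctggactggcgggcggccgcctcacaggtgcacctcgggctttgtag

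Foxa2, first start (chr2:148046970-148047219, minus strand): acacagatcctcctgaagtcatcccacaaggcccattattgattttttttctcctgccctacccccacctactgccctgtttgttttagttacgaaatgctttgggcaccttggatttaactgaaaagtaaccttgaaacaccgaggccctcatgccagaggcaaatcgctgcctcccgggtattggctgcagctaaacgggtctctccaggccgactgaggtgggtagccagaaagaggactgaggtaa

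Foxa3 (chr7:19023540-19023789, minus strand): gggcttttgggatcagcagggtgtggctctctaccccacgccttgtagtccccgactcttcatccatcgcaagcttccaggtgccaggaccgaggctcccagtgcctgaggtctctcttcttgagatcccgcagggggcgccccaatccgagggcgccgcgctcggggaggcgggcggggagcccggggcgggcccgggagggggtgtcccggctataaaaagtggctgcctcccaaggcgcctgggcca

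Hnf4a, second start (chr2:163546905-163547154, plus strand): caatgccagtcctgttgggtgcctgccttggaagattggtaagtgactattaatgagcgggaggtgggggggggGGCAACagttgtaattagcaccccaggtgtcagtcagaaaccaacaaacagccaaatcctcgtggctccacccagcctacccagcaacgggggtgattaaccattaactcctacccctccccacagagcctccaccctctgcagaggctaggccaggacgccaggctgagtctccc

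The Foxa1 window holds 1 forkhead match, which begins 141 bases before the start and lies on the opposite strand. TGTTTAC occurs in the same window of 3.17% of the 32851 RefSeq promoters, and TGTTTGC in 4.3%. The windows of Foxa3 and of the 3 Foxa2 starts hold none of the searched letters. At the second Hnf4a start 1 match to GTTGCC begins 176 bases before it, on the opposite strand. At the first Hnf4a start 1 match to GTTGCC begins 154 bases before it. GTTGCC is found in 10.43% of all promoters and the HNF4 letters in 0.38%. The last were not found at any member with a matched promoter, and Hnf4g, which had none, was not searched. The motifs were chosen after the results were known, no match overlaps another, and a match is only a match of letters.

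Each array held 62976 spots, and between 57.4% and 67.1% of the probes on each array passed the flag for a signal well above background. The 13 tested markers of small intestinal epithelium were well above background on all 8 arrays. The same held for the 8 tested markers of exocrine pancreas, 10 of smooth muscle and mesenchyme and 6 of blood. Passing the filter already needs this flag in 1 group, so detection alone does not identify the tissue. The Rfx6 probe, which lies at chr10:51450116-51450175 on mm9, did not differ beyond the replicate spread (log2 difference 0.38, SE 0.29, limma adjusted p 0.503), and so does not check the labels. The array number limits the precision. No label says that samples of a group came from separate animals, although each carries its own number, so the p-values measure the spread between these samples.

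Foxa1 rose 2.34-fold on the knockout arrays. Its probe lies at chr12:58641764-58641823 on mm9 and begins at base 2982 of the transcript. The processed signal, which is background-subtracted and in scanner units, was 2411, 1865, 2104 and 1953 on control arrays 1 to 4. On knockout arrays 1 to 4 it was 6223, 4430, 4504 and 4970. The lowest knockout array thus stood above the highest control array. Levels were then expressed as log2 of the signal after subtracting, on that scale, the 75th percentile found on the same array, on which scale Foxa1 was at 1.62 ± 0.21 (SD, n = 4) in control and 2.84 ± 0.21 (SD, n = 4) in knockout. Knockout minus control was thus 1.23 on the log2 scale (SE, the standard error, 0.14; limma with Benjamini-Hochberg adjustment over 23276 genes, adjusted p 0.0016), and the exact two-sided permutation p was 0.0286, the smallest that the 70 splits of 8 arrays allow. A rise at least as large was found for 0.992% of the genes tested.

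Foxa2 rose on its brighter probe. That probe (chr2:147868669-147868728, mm9) gave processed signals of 269.03, 233.7, 274.99 and 275.4 on control arrays 1 to 4, and 696.7, 512.5, 446.8 and 526.5 on the knockout arrays. The groups did not overlap, and knockout array 1 was the highest. The level was -1.36 ± 0.15 (SD, n = 4) in control and -0.37 ± 0.25 (SD, n = 4) in knockout, a log2 difference of 0.995 (SE 0.136, limma adjusted p 0.0046), or 1.99-fold. The dimmer probe (chr2:147868614-147868673) overlaps the first by 5 bases. Its signals were 43.2, 26.8, 44.6 and 37.9 on the control arrays, where 2 of 4 passed the background flag, and 111.6, 67.6, 142.9 and 88.1 on the knockout arrays, where 4 of 4 passed. The probes share a transcript and arrays and are not independent. The dimmer probe was kept through the knockout group alone, so no test of it is given.

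Foxa3, the member of the family best known from liver and intestine, also rose. Its probe (chr7:19599053-19599112, mm9) had processed signals of 305.2, 271.1, 332.98 and 302.03 on control arrays 1 to 4 and 561.6, 482.8, 500.7 and 432.8 on knockout arrays 1 to 4. Again no knockout array fell within the control range. The level was -1.16 ± 0.17 (SD, n = 4) in control and -0.49 ± 0.067 (SD, n = 4) in knockout. Knockout minus control came to 0.67 (SE 0.099, limma adjusted p 0.0069), a 1.59-fold rise.

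**Figure D1:**
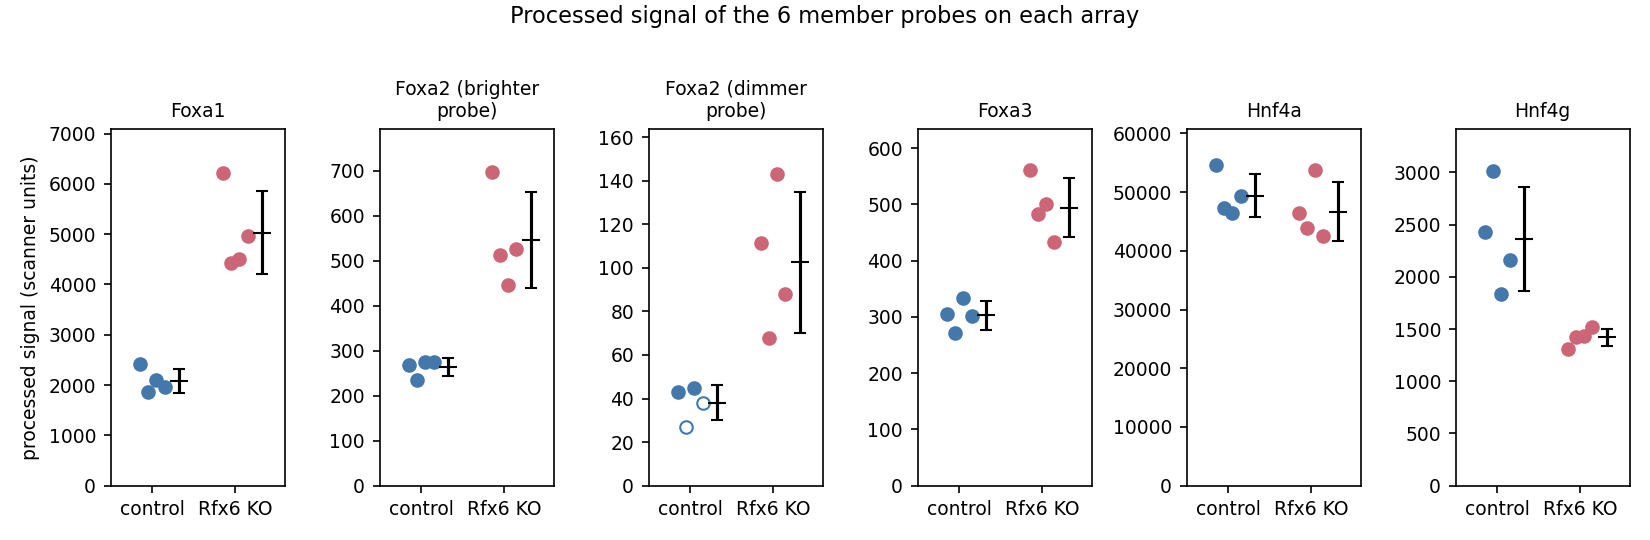
Processed signal (scanner units, linear axes from 0) of the 6 probes, with 1 point per array, control in blue and Rfx6 KO in red; open points were not well above background, and the dash with bars is the mean ± SD of 4 arrays. The Foxa1 and Foxa3 probes and the brighter Foxa2 probe sit higher on the knockout arrays with no overlap. Hnf4g sits lower with no overlap, and Hnf4a overlaps. The dimmer Foxa2 probe, kept through the knockout group alone, has control points not well above background.

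Hnf4a, by contrast, did not pass the test. Its probe (chr2:163398548-163398607, mm9, beginning at base 4262 of the transcript) was bright and not saturated, with processed signals of 54560, 47256, 46473 and 49355 on control arrays 1 to 4 and 46513, 43870, 53808 and 42492 on the knockout arrays. The groups overlapped. The level was 6.19 ± 0.12 (SD, n = 4) in control and 6.07 ± 0.12 (SD, n = 4) in knockout. Knockout minus control came to -0.13 (SE 0.095), with a limma adjusted p of 0.496 and an exact permutation p of 0.2. Its 95% interval ran from -0.34 to 0.089, that is from 0.79 to 1.06 of the control level, which does not show that the gene stayed the same. The sign turned to 0.034 under quantile normalization.

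Hnf4g fell. Its probe (chr3:3657265-3657324, mm9) had processed signals of 2432, 3018, 1834 and 2161 on control arrays 1 to 4 and 1310, 1428, 1429 and 1515 on knockout arrays 1 to 4. Every knockout array lay below every control array, and the control arrays were the more spread. The level was 1.78 ± 0.27 (SD, n = 4) in control and 1.03 ± 0.18 (SD, n = 4) in knockout, and knockout minus control came to -0.75 (SE 0.15, limma adjusted p 0.0227). Knockout was thus at 0.59 of control, with a 95% interval from 0.47 to 0.75. The call rested on single arrays: the adjusted p was 0.0775 without control 1, 0.0695 without knockout 1, 0.0698 without knockout 2 and 0.0568 without knockout 3, with differences of -0.72, -0.68, -0.76 and -0.74. It was also lost when no filter on dim probes was used (limma adjusted p 0.079). The calls of the 3 Foxa genes held under all 20 alternatives, 1 of which averaged the dimmer Foxa2 probe with the brighter.

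Of the 5 members, then, 3 were called higher and 1 lower. Among all genes tested 2.33% were called higher, 2.59% lower and 4.92% in either direction. These were 543 genes higher and 602 lower, and 545 and 253 with median centring. The arrays of the groups did not overlap for 3 members in the higher and 1 in the lower direction, against 5.37% and 9.25% of the genes with a value on every array. The members were chosen with earlier results of these data known, so these shares are given for scale. In whole tissue, fewer cells that express a gene and less of its RNA per cell cannot be told apart.

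**Figure D2:**
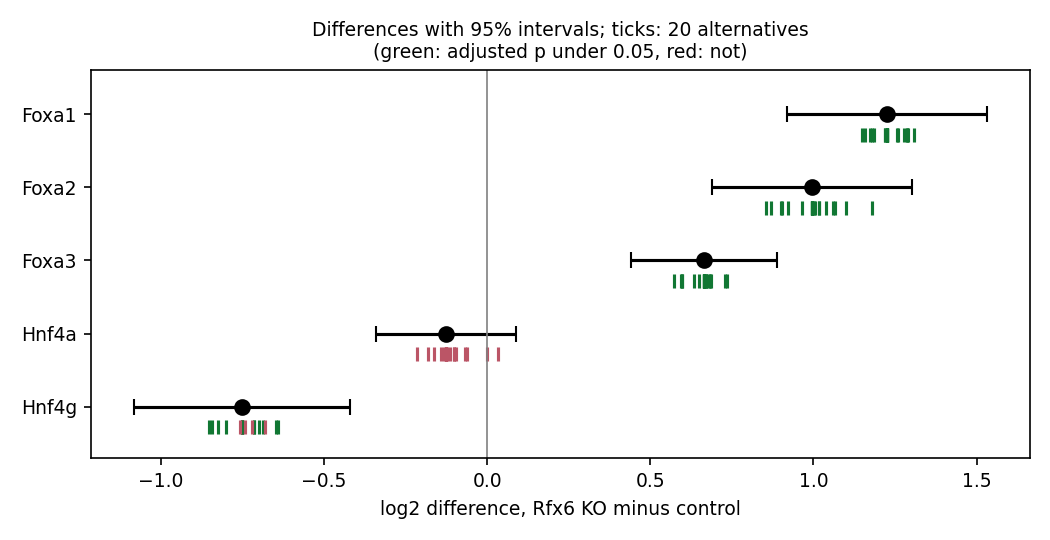
Log2 difference, Rfx6 KO minus control, of each member (black point) with its 95% interval from limma; the ticks beneath give the 20 alternatives, green with an adjusted p under 0.05 and red without. Foxa1, Foxa2 and Foxa3 lie to the right of 0 and Hnf4g to the left under each alternative, while Hnf4a lies on both sides.

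The members did not move by the same amount. For each of the 10 pairs, the log2 difference between both genes within an array was compared between the groups by an exact two-sided permutation test, adjusted over the pairs. Foxa1 moved apart from Hnf4g by 1.98 (exact permutation p 0.0286, adjusted 0.0357) and from Hnf4a by 1.35 with the same p. The paralogues Hnf4a and Hnf4g moved apart by 0.63 (exact permutation p 0.0286, adjusted 0.0357). Among the Foxa genes, Foxa1 rose more than Foxa3 by 0.56 (exact permutation p 0.0286, adjusted 0.0357). The separation of Foxa1 from Foxa2 was 0.23 (exact permutation p 0.0857, adjusted 0.0857) and that of Foxa2 from Foxa3 0.33 (exact permutation p 0.0571, adjusted 0.0635), and neither passed. All 6 pairs of a Foxa gene with an Hnf4 gene reached the smallest p. For the pairs with Hnf4g this was fixed in advance. Each Foxa gene alone was higher on every knockout array than on any control array, and Hnf4g lower. These pairs are therefore no further test, and the adjusted p of the other pairs was computed with them included. A shift within an array shows unequal change and not which gene changed.

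**Figure D3:**
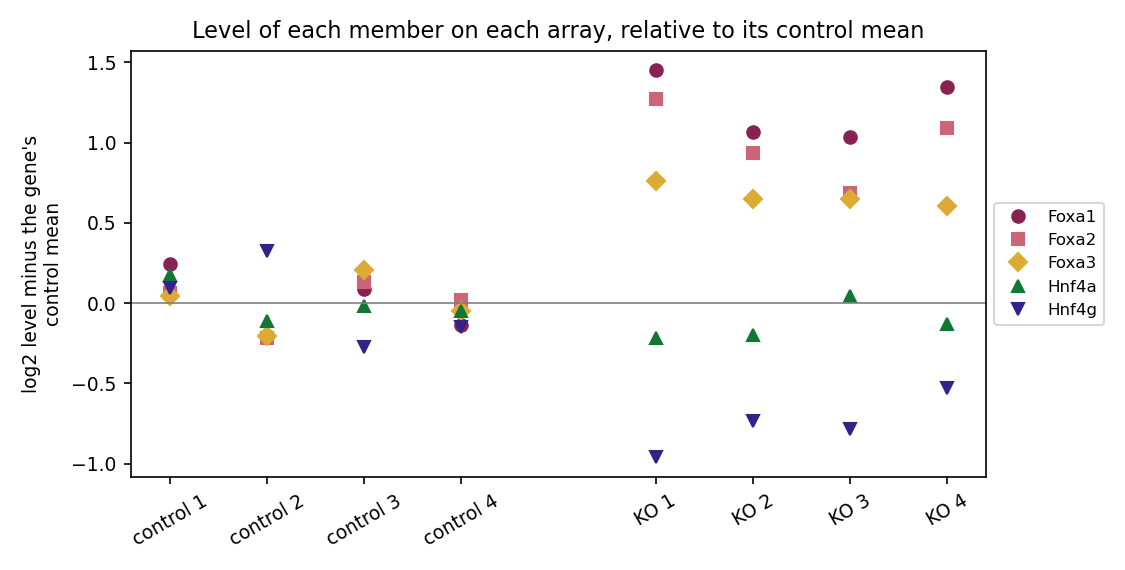
Log2 level of each member on each array minus the mean of its 4 control arrays; 1 marker shape per gene, control arrays on the left and knockout (KO) arrays on the right. On the knockout arrays the Foxa genes all lie above 0 and Hnf4g below it, and Foxa1 is the highest on each.

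The arrays lay in 2 rows of 1 slide, and control array 1 shared its row with knockout arrays 2, 3 and 4. Within that row Foxa1 differed by 0.90, Foxa2 by 0.84, Foxa3 by 0.59, Hnf4a by -0.27 and Hnf4g by -0.78. Within the other row, of 3 control arrays and knockout array 1, Foxa1 differed by 1.53, Foxa2 by 1.29, Foxa3 by 0.78, Hnf4a by -0.16 and Hnf4g by -0.93. The direction was therefore the same in both rows for each member. With the row as a block, Hnf4g differed by -0.85 (limma adjusted p 0.0354).

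Markers of other cell types moved alongside the members. Of 15 tested stomach epithelium markers 12 were called higher and none lower by limma, or 80% beside 4.92% of all genes. All 15 were well above background on every knockout array, but only 5 on every control array. The others entered the test through the knockout group alone, where they were higher, so the count rests in part on the filter. The mean level of the list ran from -5.01 to -3.51 on control and from 0.997 to 1.83 on knockout arrays. Gkn2, Atp4a, Cblif, Vsig1 and Cldn18 passed the flag for a signal well above background on no control array. The median of the list was 5.73, and 4.57 with these 5 at their bound. Among markers of endocrine cells 10 of 15 (66.7%) were called lower and none higher, with 11 lower and 4 higher in knockout. The 4 higher were Chga, Chgb, Tph1 and Neurog3, by 0.26, 0.17, 0.39 and 0.46, and none of these passed. All 15 were well above background on every control array and 11 on every knockout array, so some passed the filter through the control group alone. The list mean lay between 1.88 and 2.35 in control and between -1.46 and -1.23 in knockout. In the liver list 3 of 11 (27.3%) were called higher, with means of 0.64 to 2.06 in control and 1.6 to 2.42 in knockout. For goblet cells 1 of 7 was called higher and 1 lower, together 28.6%. For exocrine pancreas limma called none of 8, although 7 were lower in knockout (median -0.65) and 2 were lower at an unadjusted p under 0.05. For smooth muscle and mesenchyme limma called none of 10, although all 10 were higher (median 0.22), with 0 at an unadjusted p under 0.05. For blood limma called none of 6, also with 0 at an unadjusted p under 0.05, and 5 were lower (median -0.10). Of the 4 tested colon markers Aqp8 alone was called (25%), lower by 1.8 log2 units. The part of these markers in the results for the members was not tested.

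A list of 21 genes held other hepatocyte nuclear factors, nuclear receptors and cofactors. Of these 19 were tested, 1 was called higher and 2 lower, or 15.8% beside 4.92% of all genes, with a median difference of -0.095 beside -0.051 over all genes. Ppara, the fatty acid receptor, fell by 0.53 (limma adjusted p 0.0281). Nr2f2, an orphan receptor of mesenchyme, rose by 0.37 (limma adjusted p 0.0404), and the related Nr2f6 fell by 0.28 (limma adjusted p 0.0454). The calls of Nr2f2 and Nr2f6 were lost with the slide row as a block (limma adjusted p 0.0905 and 0.108) and without any 1 of the 8 arrays; that of Ppara was lost without control 1, 3 or 4 or knockout 1, 2 or 4. Onecut2, which belongs to the HNF-6 family, differed by -0.86 (limma adjusted p 0.055), just short of the threshold. Onecut1 and Onecut3 did not pass the filter. The Onecut genes were singled out after their values were seen.

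Among 41 other forkhead genes 25 were tested, and 1 was called higher and 0 lower by limma, with a median difference of 0.043. That is 4% of the list, close to the 4.92% of all genes. The called gene was Foxq1, known from stomach and hair, which rose by 0.85 (SE 0.14, limma adjusted p 0.0121) and kept its call under all 20 alternatives. Foxf1, Foxf2 and Foxl1, forkhead factors of gut mesenchyme, differed by 0.24, 0.21 and 0.31 and did not pass; they were named after their values were seen.

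Of 17 other transcription factors of gut epithelium 15 were tested, with 2 called higher and 2 lower, or 26.7% beside 4.92% of all genes. Klf4, a factor of differentiated epithelium and goblet cells, rose by 0.68 (limma adjusted p 0.0237). Spdef, a goblet cell factor, rose by 0.50 (limma adjusted p 0.0454). Gata4, a factor of the proximal intestine, fell by 0.51 (limma adjusted p 0.0395), and Nkx6-3, a homeobox factor of stomach endocrine cells, fell by 3.44 (limma adjusted p 0.0097). The difference of Nkx6-3 was -2.11 with normexp background correction and -2.10 with the series matrix values, and its call was lost with the replicate block (limma adjusted p 0.0592). With the slide row as a block Klf4, Spdef and Gata4 were no longer called (limma adjusted p 0.0743, 0.114 and 0.0921). On leaving out 1 array, the call of Klf4 was lost without control 3 or 4 or knockout 1 or 4, and those of Spdef and Gata4 without any array other than control 2. Cdx2, the master factor of intestinal identity, differed by -0.24 (limma adjusted p 0.212); it was chosen after its value was seen.

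A list of 21 genes described as HNF4 targets in intestine or liver was tested in full, and 7 were called lower and 1 higher. These calls were 38.1% of the list, beside 4.92% of all genes. The median difference of the list was -0.15. Lct, which encodes lactase, fell by 0.75 (SE 0.16, limma adjusted p 0.0297). Apoc2, an apolipoprotein that activates lipoprotein lipase, fell by 0.68 (limma adjusted p 0.0066). Fabp1, a fatty acid carrier, fell by 0.65 (limma adjusted p 0.0079), and Apoa4, an apolipoprotein of chylomicrons, by 0.61 (limma adjusted p 0.0222). Ttr, a carrier of thyroid hormone, rose by 0.63 (limma adjusted p 0.0033). Of the 7 genes called lower 4 were also in the list of small intestinal epithelium markers. Of those 13 markers 4 were called lower and none higher by limma, or 30.8%. Their mean level lay between 5.30 and 5.70 in control and between 5.34 and 5.56 in knockout, so the groups overlapped.

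The count of lower HNF4 targets depended on scaling, on the filter, on the slide row and on single arrays. It was 1 under quantile normalization, 2 with median centring and 3 with the series matrix values. It was 2 with no filter on dim probes, 4 with the slide row as a block and 2 with the replicate block. It was 2 without control 1, control 3, knockout 1 or knockout 2, and 4 without control 4. The call of Lct was lost with the slide row as a block (limma adjusted p 0.0781) and without control 1, 3 or 4 or knockout 1, 2 or 4, and that of Apoa4 without control 1 or 3 or knockout 1 or 2. The 4 named genes that fell kept their direction under all 20 alternatives.

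Of 24 genes described as Foxa targets in gut, pancreas, liver or lung 21 were tested, with a median difference of 0.32. Called were 5 higher and 2 lower, or 33.3% beside 4.92% of all genes. Among these, Shh and Tff1 passed the filter through the knockout group alone, and Gcg and Sst through control alone. In each case it was the group where the gene was higher, so the counts rest in part on the filter. The genes did not move one way, and Gcg and Sst are also endocrine markers, Tff1 a stomach marker and Ttr a liver marker in the lists above. Gcg, the proglucagon gene of L cells, was at least 111-fold lower, a bound set by the lowest signals well above background, as it was not above background on any knockout array. Sst, the somatostatin gene of D cells, was lower and passed the background flag on 1 of 4 knockout arrays, so its measured difference of -7.25 rests on background signal. With normexp background correction Sst differed by -5.00 and Gcg by -5.08, and with the series matrix values Gcg differed by -5.07. Both Gcg values are smaller than its bound of 111-fold, so the bound holds only for the processing used here. Tff1, a trefoil factor of the stomach, differed by 12.31 and passed the background flag on 2 of 4 control arrays, so its size rests in part on background signal. As Sst and Tff1 each entered through the group where it was higher, no p-value is given for them. Shh, a secreted signal of gut epithelium, passed the background flag on no control array, and was at least 1.99-fold higher. With normexp background correction, which adds an offset of 50 to each signal, the difference of Shh was 0.67, and with the series matrix values 0.65, both smaller than that bound. Pck1, the gluconeogenic enzyme, rose by 0.90 (limma adjusted p 0.0342), and its call was lost with the slide row as a block (limma adjusted p 0.0927) and without control 1, 2 or 3 or knockout 1, 2 or 3. Ttr and Spdef, given above, were the remaining genes called higher. Muc2, the main intestinal mucin, differed by 0.92 (limma adjusted p 0.23) and did not pass; it was named after its value was seen. The count of higher genes was 3 without control 3 or knockout 1, 2 or 3. It was also 3 with the slide row as a block, with the replicate block and with no filter on dim probes. That of lower genes was 4 without knockout 1 and with array weights. When a probe had to pass the background flag on each of the 8 arrays, 3 were higher and 0 lower, which leaves Gcg, Sst, Shh and Tff1 untested.

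**Figure D4:**
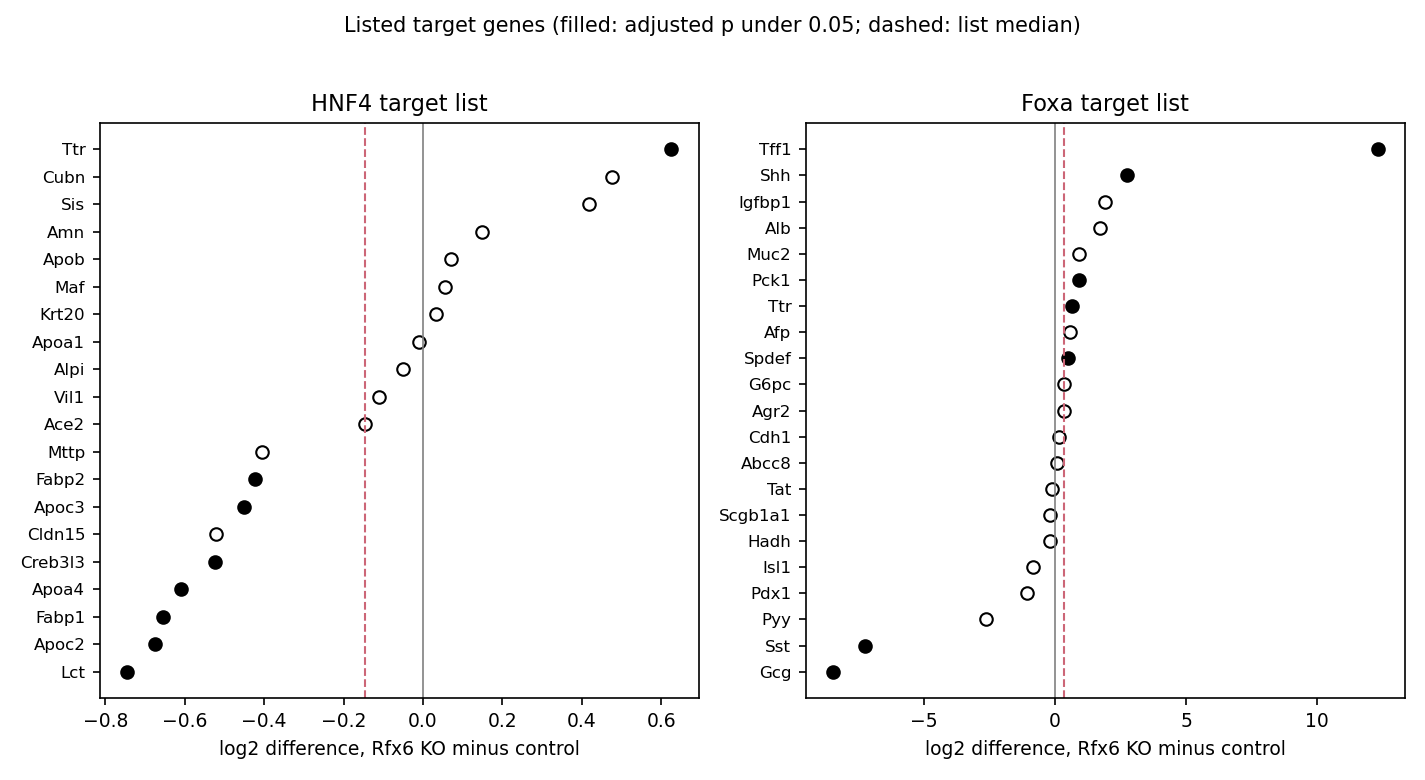
Log2 difference, Rfx6 KO minus control, of the tested genes of the HNF4 target list (left, 1 of 21 not drawn) and the Foxa target list (right); filled points have a limma adjusted p under 0.05, and the dashed line is the list median (-0.15 and 0.32). The horizontal scales differ, and the points of Gcg, Sst, Shh, Tff1 and Igfbp1, and less so Isl1 and Scgb1a1, include arrays at background in 1 group.

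The genes most like each member were taken by Pearson correlation of the levels over the 8 arrays, which mainly follows the difference between groups and is given without a test. Foxa1 was most like Mboat1, Nipal2 and Paqr8, with r of 0.995, 0.993 and 0.991. Foxa2 was most like Myo5c, Plet1 and Deptor, with r of 0.996, 0.995 and 0.994, and these rose by 1.00, 2.49 and 0.84 log2 units. Foxa3 was most like Slc50a1, Galnt12 and Slc38a11, with r of 0.991, 0.985 and 0.983. Hnf4g was most like Rccd1, Them4 and Cdc14b, with r of 0.993, 0.992 and 0.987. For deviations from the group means, Foxa2 was most like Ces2g, Capn5 and again Myo5c, with r of 0.979, 0.967 and 0.964.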

How the data were processed

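Total RNA was hybridised to 8 single-colour arrays, 4 per group. Per the file headers, the authors read the arrays with Agilent Feature Extraction 10.10.1.1 on a grid built on mm9, and the deposited processed signal is an intensity with background subtracted, not scaled between arrays. The values of the deposited series matrix are an intensity as well; their ranks equal those of the spot medians (Spearman correlations of 1); its columns share a median of 129.6 as after quantile normalization, and its scale is linear. Flags of the software (other) that mark spots well above background are deposited in the same files.

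Control and outlier spots were left out, log2 was taken, and the 75th percentile of each array's log2 values was subtracted. A probe was kept if well above background on all 4 arrays of a group (31662 probes). The brightest probe stood for a gene (23276 genes). Groups were compared with limma 3.58.1 in R 4.3.3, two-sided, at an adjusted threshold of 0.05. In a simulation of 23276 genes, 200 of them changed, 2-fold changes were called in 86.0% and 4-fold changes in 98.0% of cases. It held no slide rows and no changes as small as those of Foxa3 and Hnf4g. Members and lists were chosen with earlier results of these data known. Named were the members, Rfx6, at most the 4 largest called rises and falls of each list and the 3 genes most like each member; not all genes this rule gives are printed. Some list members and 1 motif are not reported here.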

Additional observations from a re-analysis of the deposited data

Results flagged for a closer look

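Among 76 groups of 4 values, covering the member probes, the named genes of the lists and the list means, 9 had 1 array far from the other 3, where chance gives about 1 in 20, or 3.8 groups. None was a value of a member. Nkx6-3 stood at -2.41 on knockout array 1, against -5.03 to -4.91 on the others, and without that array its difference was -4.09. Ppara stood at 3.07 on control array 1, Gata4 at 0.96 on knockout array 2, Apoc2 at 7.98 on knockout array 3 and Sst at 1.75 on control array 2. The list means stood apart at 1.35 for other hepatocyte nuclear factors and 5.56 for small intestinal epithelium on knockout array 3, at 1.42 for gut factors on control array 2 and at 2.06 for liver on control array 1.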

How the results depend on the processing

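Of the results for the members, the calls of Foxa1, Foxa2 and Foxa3 and the direction of Hnf4g were the same under all 20 alternatives, with ranges of 1.15 to 1.31, 0.85 to 1.18, 0.57 to 0.73 and -0.85 to -0.64. The upper end for Foxa2, 1.18, came from the mean of a gene's probes. That alternative includes the dimmer Foxa2 probe, kept through the knockout group alone, and is no further support for the Foxa2 call. Hnf4a was 0.034 under quantile normalization and 2.2e-04 with the series matrix values, below 0 under the others and never called; the cause was not tested. Hnf4g kept its difference of -0.75 but lost its call without a filter on dim probes (limma adjusted p 0.079), where more genes are tested. Leaving out 1 array gave Hnf4g differences from -0.84 to -0.64. Genes called lower over the whole array numbered 253 with median centring, and without the filter 298 were higher and 203 lower. With array weights 830 were higher and 1268 lower; no cause was tested for this. Omitting 1 array, which leaves fewer samples, gave 349 to 517 higher and 233 to 592 lower genes. Higher calls moved by over 1.5 times without control 1 (355), knockout 1 (354) or knockout 2 (349), and lower calls without control 1 (243), 3 (313) or 4 (359) or knockout 1 (245) or 2 (233).

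Deviations from the group means were not shared by like-numbered samples (correlations of -0.071, -0.17, 0.073 and -0.41), and no pairing was assumed. With the replicate block Hnf4g was -0.75 (limma adjusted p 0.0915), 268 genes were called higher and 148 lower, and the Foxa calls were kept. The 18 named genes of the lists kept their direction under every alternative that tested them, and 6 kept their call. Median centring moved the median of all genes to 0.013 from -0.051. Signal over background limits the dimmer Foxa2 probe.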

Other observations

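Hnf4aos, a long non-coding RNA gene beside Hnf4a in RefSeq, has 1 kept probe (chr2:163319601-163319660, mm9). Its level was 1.90 ± 0.047 (SD, n = 4) in control and 1.72 ± 0.10 (SD, n = 4) in knockout, and the log2 difference of -0.17 did not pass (limma adjusted p 0.25), although the groups did not overlap. It was looked up after the results were seen. Onecut3, which did not pass the filter, was well above background on 3 of 4 control arrays and on 0 of 4 knockout arrays.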
